A study of Rattus norvegicus with 12 samples.

Results

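Fast, transient potassium current of the A type is carried in cortical neurons largely by channels of the Kv4 family. Their transcripts were followed here in the medial prefrontal cortex (mPFC) of rats whose prefrontal excitatory neurons had been driven for days. The complex was taken as 9 genes, matched by exact symbol in the deposited count table of 29009 genes. These are 3 pore subunits (Kcnd1, Kcnd2 and Kcnd3), 4 calcium-binding KChIPs (Kcnip1, Kcnip2, Kcnip3 and Kcnip4) and 2 DPP-like subunits (Dpp6 and Dpp10). All 9 had a row in the table and all 9 passed the filter on low counts, as did 19094 genes in all.

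As background, 4 pore subunits assemble into a channel that opens below spike threshold and inactivates quickly. The resulting current delays firing and limits how far spikes spread back into dendrites. KChIPs bind the inner face of the pore subunits, raise their number at the cell surface and slow their inactivation. DPP6 and DPP10 are single-pass membrane proteins related to dipeptidyl peptidases but without peptidase activity, and they speed the gating of the channel. KChIP3, the product of Kcnip3, is also known as calsenilin and as DREAM, a calcium-regulated transcriptional repressor.

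Each of the 12 libraries came from 1 adult male Sprague Dawley rat, and each of 3 groups held 4 rats. CPA+veh rats carried an AAV8 for the receptor hM3Dq fused to mCherry under the mCaMKIIa promoter, which acts in excitatory neurons, and were given vehicle after chronic prefrontal activation (CPA). CPA+RO rats carried the same virus and received RO6958375, a peptide agonist of the oxytocin receptor, at 0.07 mg/kg once daily under the skin. In control+veh rats the virus encoded only a fluorophore, and vehicle was given. All 3 groups, the controls included, took the hM3Dq ligand CNO in drinking water (calculated dose 2 mg/kg) over 10 days before 7 days of daily injections. The tissue was dissected from slices that had first been used for recordings, and the rats belonged to more than 1 cohort and recording day that no label ties to a library. The comparisons ask which transcripts differed after CPA, which differed when RO6958375 followed it, and which differed between CPA+RO and control+veh rats.

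Library totals were 64993543 to 79006972 counts, and 92.7% of counts from 1 to 9 were even, so most fragments seem to enter by both of their reads, which makes the true depth smaller. CPA+veh libraries 1 and 2 stood apart from the other CPA libraries. They had the highest summed levels of 6 oligodendrocyte markers (4835 and 3349 CPM, against 2434 to 2874 CPM in CPA+RO and control+veh libraries) and the lowest of 5 endothelial markers (74.2 and 76.4 CPM, against 101.1 to 137 CPM). Their sums of 6 astrocyte markers (3934 and 3236 CPM, against 2537 to 2945 CPM) and of 5 microglia markers (109.96 and 108.6 CPM, against 74.8 to 103 CPM) were also the highest. Their long genes also counted less, as they did in control+veh library 1. The length trend, the rank correlation of a gene's log2 level relative to the 12-library mean with its length, was -0.19 and -0.39 in these 2 libraries, 0.08 and 0.20 in CPA+veh libraries 3 and 4, 0.00 to 0.15 in CPA+RO libraries and -0.20 to 0.18 in control+veh libraries. The vesicular glutamate transporter Slc17a7, an excitatory neuron marker, was at 1185 to 1497 CPM. Gad1, an interneuron marker, was at 281 to 330 CPM. The other excitatory neuron and interneuron markers used here were lower than these in every library. The 8 excitatory markers summed to 1775 to 2007 CPM in CPA+veh, 1860 to 2035 CPM in CPA+RO and 1680 to 1834 CPM in control+veh libraries. By this sum, most of which is Slc17a7, the CPA+RO libraries lay wholly above the controls. Taken singly, 3 of the 8 markers did not overlap between CPA+RO and control+veh, beside 5.57% of all genes. In that comparison 6 of the 8 had a log2 fold change above 0 and 2 below. Ttr, a choroid plexus marker, was at 0.23 to 1.5 CPM and Drd2, a striatal marker, at 4.99 to 9.38 CPM. CPM scale each count by the TMM-normalized library total. In such bulk tissue, fewer cells of a type and less RNA per cell cannot be told apart.

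The complex was expressed at widely different levels per length. By RPKM, which scales counts to gene length and library total, Kcnip3 led with 44.0 ± 2.7 (SD, n = 12), ahead of Dpp10 with 38.5 ± 2.4 and Dpp6 with 30.6 ± 1.0. Kcnd2 followed at 21.7 ± 1.7 and Kcnd3 at 15.2 ± 1.7 RPKM, so these were the main pore transcripts of this tissue. Kcnip4 had 10.6 ± 0.7, Kcnip1 9.29 ± 1.7, Kcnip2 3.85 ± 1.1 and Kcnd1 2.43 ± 0.18 RPKM. The ranges of Kcnip3 and Dpp10, of Kcnd3 and Kcnip4, of Kcnip4 and Kcnip1 and of Kcnip2 and Kcnd1 overlapped over the 12 libraries, among neighbours in this order. Kcnip1 also reached the range of Kcnd3, which it exceeded in CPA+veh library 2 (14.1 RPKM for Kcnip1 and 11.7 RPKM for Kcnd3). Within single libraries the order held in 12 of 12 for the first 2 of these pairs, in 10 for Kcnip4 over Kcnip1 and in 11 for Kcnip2 over Kcnd1. RPKM depend on the gene model length, which ranged from 2808 bases for Kcnip1 to 9724 bases for Kcnip4.

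**Figure D1:**
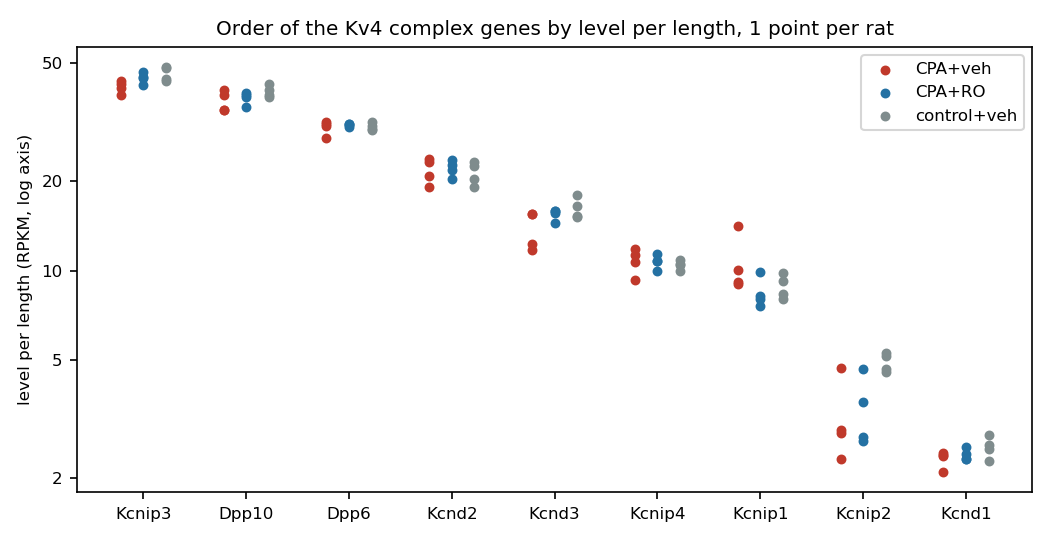
Level per length of the 9 genes on a log axis in RPKM, with 1 point per rat and the groups side by side from CPA+veh to control+veh. Kcnip3, Dpp10 and Dpp6 sit above 27 RPKM in every rat, whereas Kcnip2 and Kcnd1 stay below 6 RPKM.

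No gene of the complex passed the threshold of an adjusted p under 0.05 in any comparison, nor with DESeq2 or limma-voom. These p values come from edgeR's quasi-likelihood test with Benjamini-Hochberg adjustment over all 19094 genes. The threshold was met by 0.115% of all genes for CPA+veh against control+veh, by 0% for CPA+RO against CPA+veh and by 0.11% for CPA+RO against control+veh. In a test over the 3 groups at once, 0.136% of all genes and none of the 9 passed, and Kcnip2 came closest with an adjusted p of 0.670. An unadjusted p under 0.05 was found for 4 of the 9 between CPA+veh and control+veh rats (Kcnip2, Kcnip1, Kcnd3 and Kcnip3), against 9.94% of all genes. The study's own figure of ion channel genes, made from these same libraries, drew Kcnip1, Kcnip3 and Kcnd3. Its caption presents the genes as significantly altered after CPA and as normalized with RO6958375. Their share among the 4 is therefore not independent evidence, and none of them passed the adjusted threshold here. An unadjusted p under 0.05 was also found for 1 of 9 between CPA+RO and CPA+veh rats (Kcnip1), against 4.41% of all genes, and 1 of 9 between CPA+RO and control+veh rats (Kcnip2), against 5.75%. For none of the 9 did the 4 libraries of one group lie wholly above or below those of the other, which happened for 4.62% of all genes in the first comparison, 1.95% in the second and 5.57% in the third. The median log2 fold change over the 9 genes was -0.08 for CPA+veh against control+veh, 0.04 for CPA+RO against CPA+veh and -0.03 for CPA+RO against control+veh, beside medians over all genes of 0.01, -0.01 and 0.00.

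**Figure D2:**
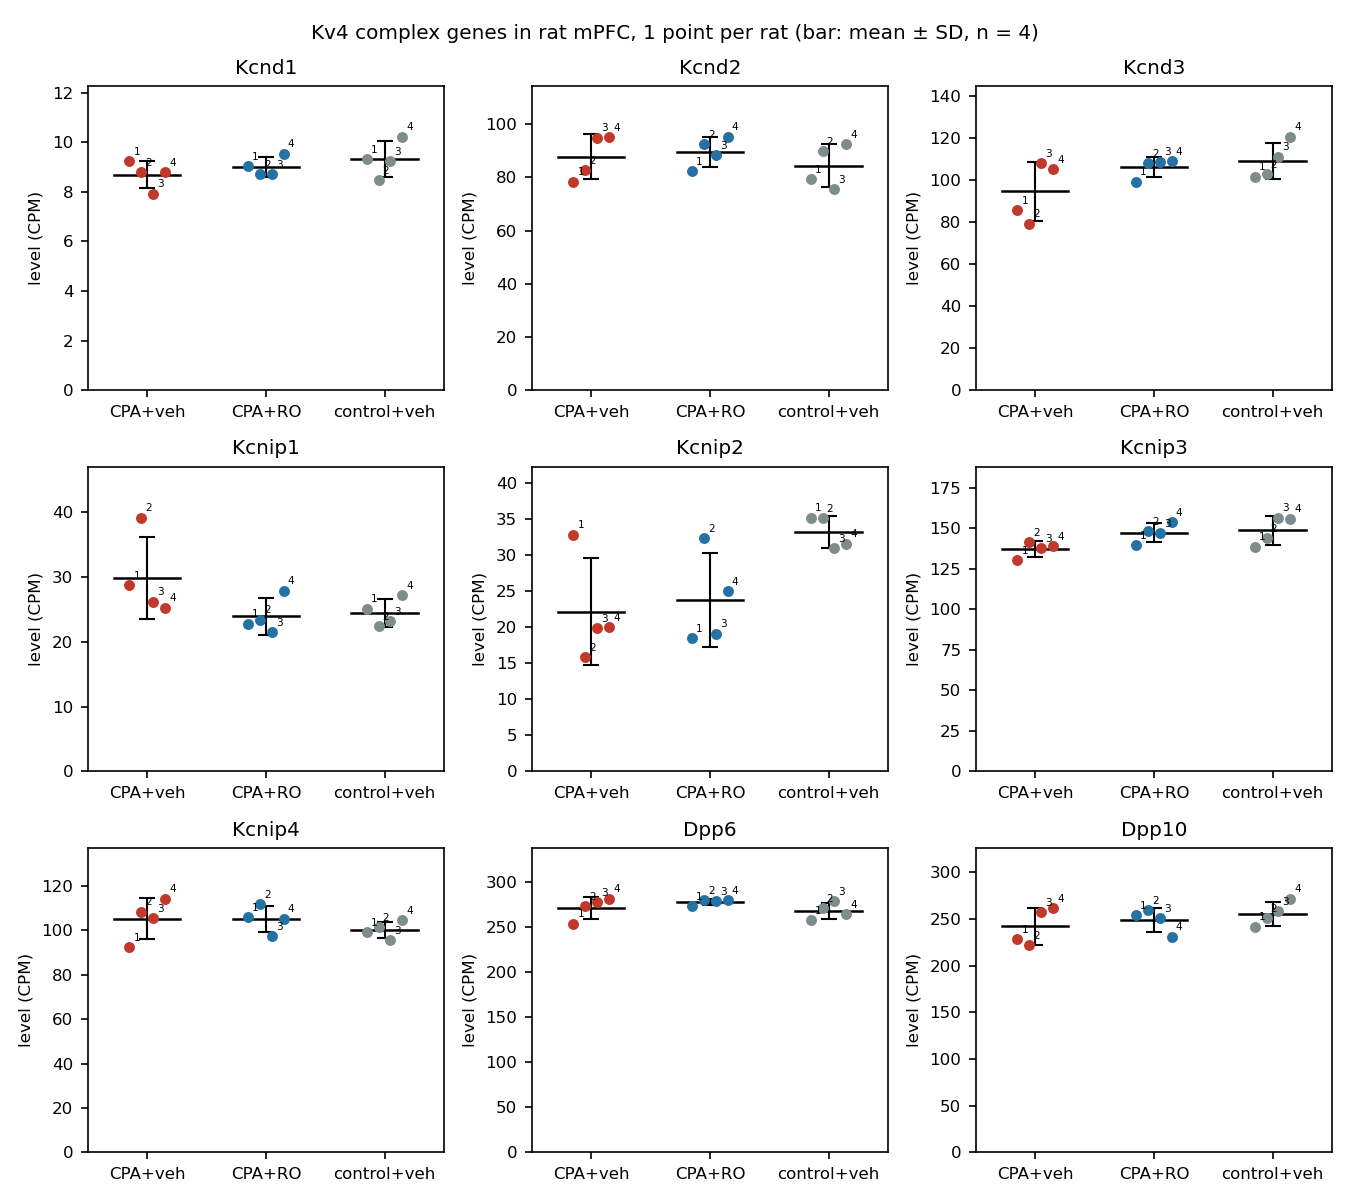
Level of each gene in CPM for every rat, with the replicate number beside each point and the mean and SD of the 4 rats as a black line and bar. Kcnip2 sits at 31.0 CPM or above in the 4 control+veh rats and reaches that level in only 1 CPA+veh and 1 CPA+RO rat, and every gene overlaps between groups.

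Kcnip2 showed the widest spread of the complex and the most negative log2 fold change against controls. KChIP2 is the KChIP best known from the heart, where it shapes the transient outward current, and it is also made in cortical neurons. Kcnip2 had 32.9, 15.8, 19.92 and 20.02 CPM in CPA+veh rats 1 to 4, 18.5, 32.4, 19.1 and 25.1 CPM in CPA+RO rats and 35.2, 35.2, 31.0 and 31.6 CPM in control+veh rats. Of the 8 rats with hM3Dq, 6 lay below every control and the other 2, CPA+veh rat 1 and CPA+RO rat 2, lay within the control range. This count pools CPA+veh and CPA+RO rats, each of which overlapped the controls. The share of all genes with such a count was not computed. Its highest level was 2.22 times its lowest over the 12 libraries, a ratio larger than that of 96.9% of the 11569 genes with a mean of at least 5 CPM. The counts behind it were 1188 to 2736 per library.

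The fitted log2 fold change of Kcnip2 was -0.59 ± 0.20 (SE) for CPA+veh against control+veh, or 33.4% lower, with an adjusted p of 0.394. By p it was gene 571 of 19094. For CPA+RO against control+veh it was -0.48 ± 0.20, with an adjusted p of 0.833. CPA+RO and CPA+veh rats gave 0.10 ± 0.20 with a 95% interval of -0.33 to 0.54, which leaves room for a difference of either sign. Both comparisons with control+veh use the same 4 control libraries. Leaving out any 1 of the 12 libraries kept the log2 fold change of CPA+veh against control+veh between -0.84, reached without CPA+veh replicate 1, and -0.46, reached without replicate 2 of that group. Without CPA+veh libraries 1 and 2 together it was -0.74, and under a correction for the length trend -0.55. The lowest adjusted p among the 22 alternatives was 0.145. Of the 8 excitatory markers, 3 had an unadjusted p under 0.05, all higher, for CPA+veh against control+veh (9.94% of all genes) and likewise 3 for CPA+RO against control+veh (5.75%). Their part in the Kcnip2 values was not tested.

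Kcnip1 was the only KChIP with an unadjusted p under 0.05 and a higher mean in CPA+veh rats. KChIP1 is found mainly in inhibitory interneurons of the cortex. Its levels were 28.8, 39.2, 26.2 and 25.3 CPM in CPA+veh rats 1 to 4, 22.8, 23.4, 21.5 and 27.9 CPM in CPA+RO rats and 25.1, 22.5, 23.2 and 27.2 CPM in control+veh rats. The high value of CPA+veh rat 2 stood out, and the other 3 CPA+veh rats reached no more than 28.8 CPM. The log2 fold change was 0.29 ± 0.13 for CPA+veh against control+veh (adjusted p = 0.485). CPA+RO against CPA+veh gave -0.32 ± 0.13 (adjusted p = 0.876). Without CPA+veh replicate 2 these became 0.13 and -0.16, and 0.07 and -0.10 once CPA+veh libraries 1 and 2 were both left out. CPA+RO and control+veh rats had a log2 fold change of -0.03 with a 95% interval of -0.31 to 0.24. The 10 interneuron markers summed to 1030 to 1128 CPM in CPA+veh, 1004 to 1152 CPM in CPA+RO and 951 to 1052 CPM in control+veh libraries, and 3 of the 10 had an unadjusted p under 0.05 for CPA+veh against control+veh, all higher in CPA+veh, beside 9.94% of all genes. Within CPA+veh, libraries 1 and 2, with the most Kcnip1, had the lowest interneuron sums (1030 and 1034 CPM), the highest oligodendrocyte and astrocyte sums and the lowest endothelial sums. Across the 12 libraries Kcnip1 and the length trend had a Pearson r of -0.69. The length correction gave 0.27 for CPA+veh against control+veh, and the part of these cell type markers in the Kcnip1 values was not tested. Kcnmb1, a potassium channel subunit whose span overlaps that of Kcnip1 in GRCr8, had no more than 1.05 CPM.

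Kcnip3 and Kcnip4, the most and the second most abundant KChIP transcripts per length, had small differences between groups. Kcnip3 had 130, 142, 138 and 139 CPM in CPA+veh rats, 139.7, 148, 147 and 154 CPM in CPA+RO rats and 139, 144, 156 and 156 CPM in control+veh rats. Its highest CPA+veh value lay between the lowest and the second lowest control, so the groups met at their edges. The log2 fold change was -0.12 ± 0.05 for CPA+veh against control+veh (adjusted p = 0.496), 0.10 ± 0.05 for CPA+RO against CPA+veh (adjusted p = 0.876) and -0.02 with a 95% interval of -0.13 to 0.10 for CPA+RO against control+veh. KChIP4, which in 1 splice form keeps Kv4 channels inside the cell and slows their inactivation, was measured at gene level only. Kcnip4 averaged 105 ± 9.2 CPM in CPA+veh, 105 ± 5.9 CPM in CPA+RO and 100.2 ± 3.7 CPM in control+veh rats (SD, n = 4 each). The 95% intervals of its log2 fold changes were -0.07 to 0.21 for CPA+veh against control+veh, -0.14 to 0.14 for CPA+RO against CPA+veh and -0.07 to 0.21 for CPA+RO against control+veh. With the length trend, Kcnip4, the longest gene model of the complex, had a Pearson r of 0.29, and Kcnip3 had 0.44.

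Among the pore genes, Kcnd3 was lower in 2 CPA+veh rats, and Kcnd2 and Kcnd1 showed no separation. Kv4.2, the product of Kcnd2, is the main dendritic A-type pore of pyramidal neurons, and Kv4.3, the product of Kcnd3, is prominent in interneurons as well. Kcnd3 had 85.9, 79.4, 108 and 105 CPM in CPA+veh rats 1 to 4, 99.4, 108, 109 and 109 CPM in CPA+RO rats and 102, 103, 111 and 121 CPM in control+veh rats. CPA+veh rats 1 and 2 were below all 10 other rats, and CPA+veh rats 3 and 4 lay within the control range. The log2 fold change was -0.21 ± 0.09 for CPA+veh against control+veh (adjusted p = 0.485), 0.17 ± 0.09 for CPA+RO against CPA+veh (adjusted p = 0.876) and -0.04 ± 0.09 for CPA+RO against control+veh (adjusted p = 0.970). Without CPA+veh libraries 1 and 2 together the first was -0.03 (adjusted p = 0.943), and the second was -0.0040, with its sign turned. Kcnd3 had a Pearson r of 0.85 with the length trend over the 12 libraries, the highest among the 9 genes, and the length correction gave -0.18 for CPA+veh against control+veh. The part of the oligodendrocyte and endothelial markers of CPA+veh libraries 1 and 2 in these values was not tested.

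**Figure D3:**
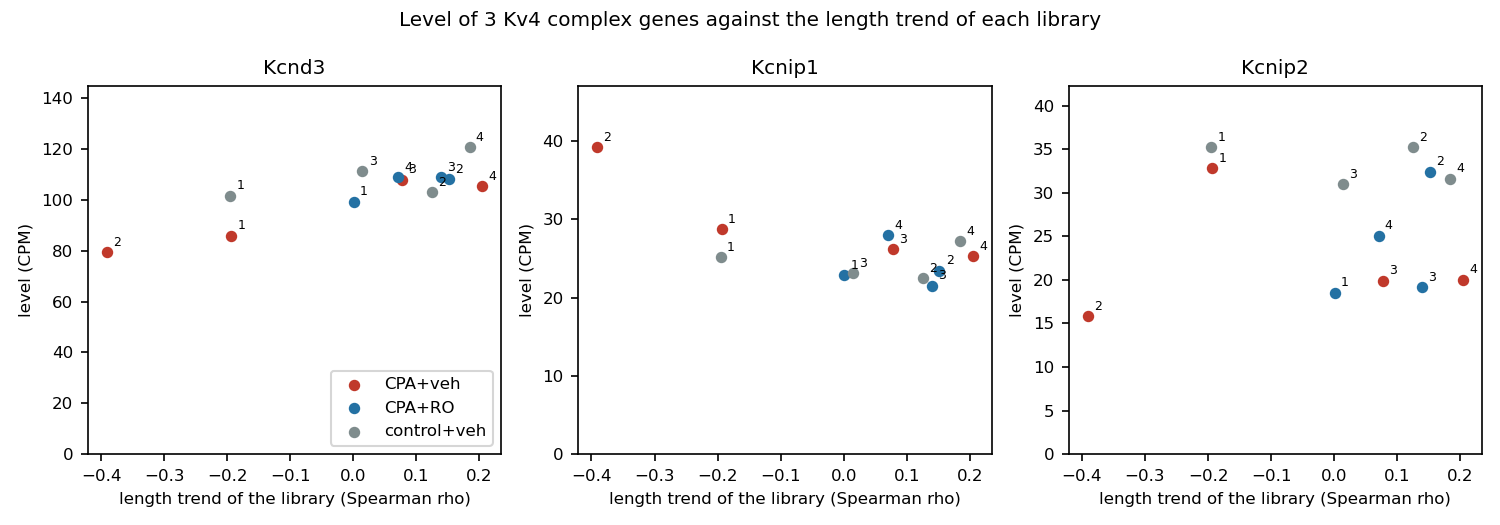
Level in CPM of Kcnd3, Kcnip1 and Kcnip2 against the length trend of each library (Spearman rho of relative level with gene length), with the replicate number beside each point. CPA+veh libraries 1 and 2 hold the 2 lowest Kcnd3 levels and the 2 highest Kcnip1 levels, whereas Kcnip2 had a Pearson r of 0.14 with the length trend.

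Kcnd2 averaged 87.8 ± 8.6 CPM in CPA+veh, 89.6 ± 5.6 CPM in CPA+RO and 84.4 ± 8.1 CPM in control+veh rats (SD, n = 4 each). Its log2 fold change for CPA+veh against control+veh was 0.06 with a 95% interval of -0.12 to 0.23, so a difference of the size seen for Kcnip2 lies outside that interval. For CPA+RO against CPA+veh it was 0.03 (-0.15 to 0.20) and for CPA+RO against control+veh 0.09 (-0.09 to 0.26). Without CPA+veh libraries 1 and 2 together the first was 0.17 and the second -0.09, with its sign turned. The first ranged over 0.0076 (control+veh rat 3 left out) to 0.11 (CPA+veh rat 1 left out) when 1 library was dropped. Kcnd2 had a Pearson r of 0.68 with the length trend, and Kcnd1 had -0.05. Kcnd1, the least abundant pore gene, averaged 8.69 ± 0.55 CPM in CPA+veh, 8.999 ± 0.40 CPM in CPA+RO and 9.32 ± 0.72 CPM in control+veh rats, from 518 to 750 counts per library. Its log2 fold changes were -0.10 for CPA+veh against control+veh, 0.05 for CPA+RO against CPA+veh and -0.05 for CPA+RO against control+veh, and the 3 intervals lay within -0.28 to 0.23.

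The ratio of the main pore transcripts was highest in the CPA+veh rats, although no difference passed the adjusted threshold. The ratio of Kcnd2 to Kcnd3 RPKM does not depend on the library scaling. It was 1.55, 1.77, 1.49 and 1.53 in CPA+veh rats 1 to 4, 1.41, 1.45, 1.38 and 1.48 in CPA+RO rats and 1.33, 1.48, 1.16 and 1.30 in control+veh rats. All 4 CPA+veh rats lay above all 8 others, narrowly at the edge (1.49 against 1.48). How often the ratio of other pairs of genes separates the groups in this way was not examined. For CPA+veh against control+veh the mean log2 ratio was higher by 0.27, and a two-sided exact permutation test gave p = 0.0286, the smallest that 4 against 4 rats can give. CPA+RO against CPA+veh gave -0.15 with the same exact permutation p, and CPA+RO against control+veh gave 0.12 (exact permutation p = 0.143). The 3 ratios examined in 3 comparisons made 9 such tests, after which the smallest adjusted p was 0.129. These ratios were chosen after the levels of the genes had been seen, and neither the p values nor their adjustment account for that choice. The first difference was 0.24 after the length correction and 0.21 without CPA+veh libraries 1 and 2, and the second was -0.11 and -0.08.

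**Figure D4:**
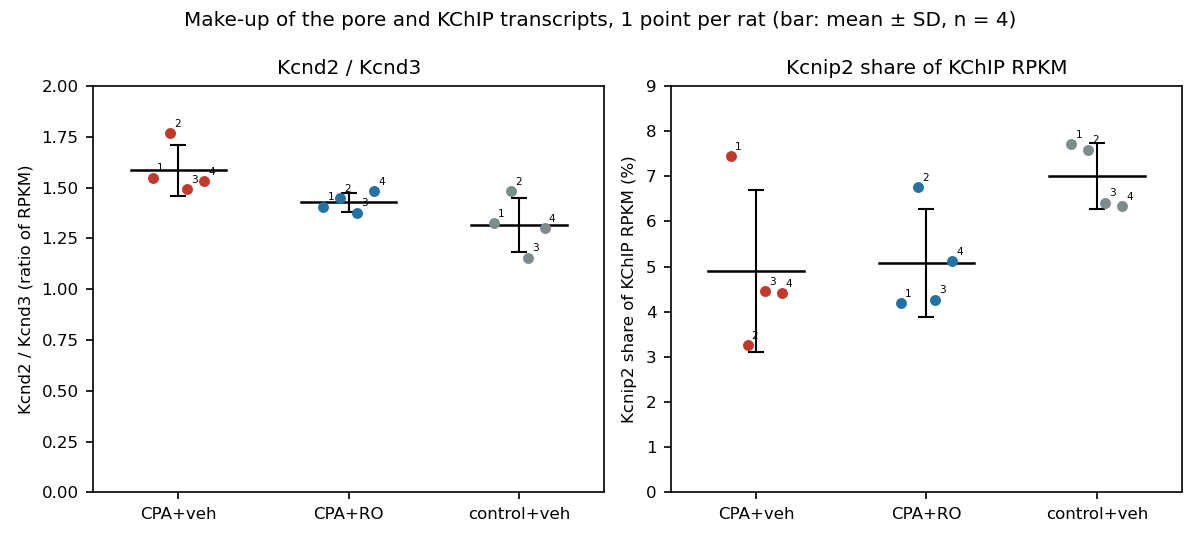
Ratio of Kcnd2 to Kcnd3 RPKM (left) and share of Kcnip2 in the summed RPKM of the 4 KChIP genes in percent (right), with 1 point per rat, its replicate number, and the mean and SD of each group. The 4 CPA+veh ratios lie at 1.49 or above and the other 8 at 1.48 or below, while the Kcnip2 share is 3.27% to 7.45% in CPA+veh, 4.19% to 6.76% in CPA+RO and 6.35% to 7.70% in control+veh rats.

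The make-up of the KChIP transcripts was led by Kcnip3 in every library. Kcnip3 made up 62.9 ± 1.7% of KChIP RPKM in CPA+veh, 66.3 ± 1.6% in CPA+RO and 65.5 ± 1.8% in control+veh rats (SD, n = 4 each). Kcnip1 held 15.9 ± 2.7% in CPA+veh, 12.6 ± 1.0% in CPA+RO and 12.6 ± 0.9% in control+veh rats. Kcnip2 held 4.90 ± 1.8% in CPA+veh, 5.08 ± 1.2% in CPA+RO and 7.01 ± 0.7% in control+veh rats, so its share was small in every group. The sum of the 4 KChIP genes was 66.1 ± 3.7 RPKM in CPA+veh, 67.1 ± 3.4 RPKM in CPA+RO and 70.2 ± 2.6 RPKM in control+veh rats. That of the 3 pore genes was 37.8 ± 4.0 RPKM in CPA+veh, 39.9 ± 2.1 RPKM in CPA+RO and 40.1 ± 2.7 RPKM in control+veh rats. The ratio of Kcnip3 to Kcnip2 averaged 14.01 ± 4.3 in CPA+veh, 13.6 ± 3.0 in CPA+RO and 9.43 ± 1.2 in control+veh rats. Its log2 difference was 0.52 for CPA+veh against control+veh (exact permutation p = 0.114), -0.02 for CPA+RO against CPA+veh (exact permutation p = 0.943) and 0.50 for CPA+RO against control+veh (exact permutation p = 0.0857).

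Dpp6 was the steadiest gene of the complex, and neither DPP-like subunit separated the groups. Dpp6 had 254, 274, 277 and 281 CPM in CPA+veh rats, 274, 279.7, 278 and 279 CPM in CPA+RO rats and 258, 271, 279 and 264 CPM in control+veh rats. Its highest level was 1.11 times its lowest, and only 1.56% of the 11569 genes with a mean of at least 5 CPM had a smaller ratio. Dpp10 had 229, 222, 257 and 261 CPM in CPA+veh rats, 255, 259.8, 251 and 231 CPM in CPA+RO rats and 242, 251, 258 and 272 CPM in control+veh rats, with CPA+veh rats 1 and 2 lowest. For CPA+veh against control+veh the log2 fold change of Dpp6 was 0.02 with a 95% interval of -0.08 to 0.12, and that of Dpp10 was -0.08 with an interval of -0.21 to 0.06. CPA+RO against CPA+veh gave 0.03 (-0.07 to 0.13) for Dpp6 and 0.04 (-0.10 to 0.18) for Dpp10. CPA+RO against control+veh gave 0.05 (-0.05 to 0.15) for Dpp6 and -0.04 (-0.17 to 0.10) for Dpp10. When CPA+veh libraries 1 and 2 were left out, the Dpp10 value turned its sign to 0.02 for CPA+veh against control+veh and to -0.06 for CPA+RO against CPA+veh. Dpp10 had a Pearson r of 0.80 with the length trend over the 12 libraries. Dpp6 had 0.49, although its gene model is longer (8901 bases, against 6474 bases for Dpp10). Their ratio, Dpp10 over Dpp6, averaged 1.23 ± 0.08 in CPA+veh, 1.23 ± 0.07 in CPA+RO and 1.31 ± 0.07 in control+veh rats, and the log2 difference for CPA+veh against control+veh was -0.10 (exact permutation p = 0.171).

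**Figure D5:**
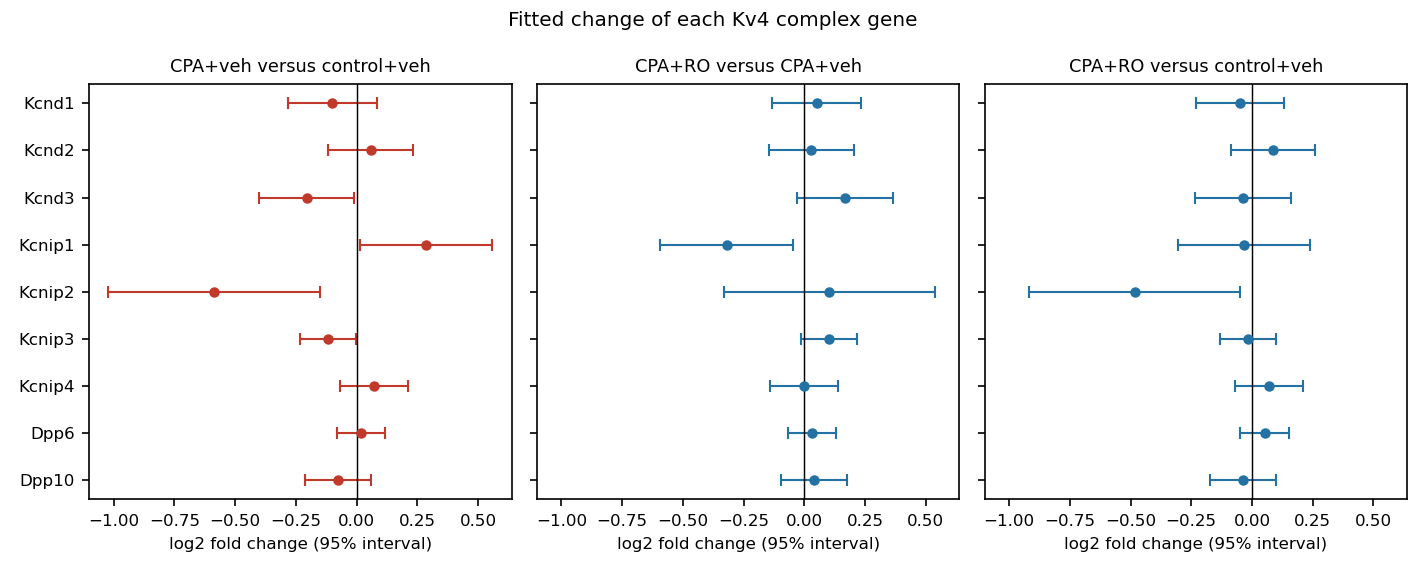
Fitted log2 fold change of each gene with its 95% interval in the 3 comparisons, positive where the first-named group is higher. Kcnip2, Kcnd3 and Kcnip3 have intervals below 0 and Kcnip1 above 0 for CPA+veh against control+veh, Kcnip1 lies below 0 for CPA+RO against CPA+veh and Kcnip2 below 0 for CPA+RO against control+veh, all before adjustment for the number of genes.

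Across the 12 libraries the 9 genes did not follow each other as a block. Of their 36 pairs, 24 had a Pearson r of log2 CPM above 0, and r ranged from -0.66 for Kcnd3 with Kcnip1 to 0.80 for Kcnd3 with Dpp10. Without CPA+veh libraries 1 and 2 these were 0.41 and 0.44. Kcnd2 with Kcnip4 had 0.67, and 0.68 without those 2 libraries, and Kcnd3 with Kcnip3 had 0.65, and 0.75 without them. All libraries enter every pair, so these values describe the libraries and carry no test. The share of all gene pairs with r above 0 is not given here, so the 24 of 36 has no reference.

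The genes with the most similar profile were named as the 3 highest Pearson r over the 12 libraries. For Kcnip2 these were Kansl1l (0.91), Sh3glb1 (0.91) and Cox16 (0.90), and each stayed at 0.87 or 0.88 without CPA+veh libraries 1 and 2. For Kcnip1 they were Sumf2 (0.90), mrpl24 (0.89) and Aph1a (0.89), which dropped to 0.58, 0.69 and 0.69 without those libraries. Kcnd3 was most like Fam208a (0.97), Phf6 (0.97) and Pbrm1 (0.96), and Kcnd2 most like Zpbp2 (0.95), Hlf (0.94) and Srpk2 (0.93). Kcnip3 was most like Caap1 (0.92), Mfsd6l (0.89) and Igf1r (0.89), and Kcnip4 most like Btbd10 (0.89), Wee1 (0.88) and Nln (0.86). Dpp10 paired with Cab39 (0.96), Arfgef1 (0.94) and Kpna1 (0.94), Dpp6 with Fmo2 (0.96), Uba1 (0.89) and Paqr5 (0.88), and Kcnd1 with Mgat2 (0.85), L3mbtl2 (0.84) and Usp40 (0.83). Some of these are low, such as Zpbp2 at a mean of 0.66 CPM and Mfsd6l at 0.49 CPM. The profiles share libraries and their length trend, and the highest of 19094 values of r is high by selection.

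Promoter sequence is shown for the 4 genes with an unadjusted p under 0.05 for CPA+veh against control+veh, so that their start regions can be read side by side. The windows run from 250 bases before to 50 after the RefSeq start in the rat assembly GRCr8, 5′ to 3′ on the strand of the gene, and the capitals mark the GC box letters GGGCGG on either strand (CCGCCC where it lies on the other one). Kcnip2 lies at chr1:254613849-254614148 (minus strand), Kcnip3 at chr3:135195361-135195660 (minus strand), Kcnd3 at chr2:195626066-195626365 (plus strand), and Kcnip1 has starts at chr10:19092976-19093275 and chr10:18940760-18941059 (minus strand), shown in that order.
Kcnip2: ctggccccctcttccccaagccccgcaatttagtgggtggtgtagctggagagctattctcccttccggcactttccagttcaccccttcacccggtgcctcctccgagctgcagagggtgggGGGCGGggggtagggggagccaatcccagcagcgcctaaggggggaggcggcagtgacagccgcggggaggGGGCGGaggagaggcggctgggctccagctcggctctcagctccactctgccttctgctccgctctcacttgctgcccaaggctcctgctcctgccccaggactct
Kcnip3: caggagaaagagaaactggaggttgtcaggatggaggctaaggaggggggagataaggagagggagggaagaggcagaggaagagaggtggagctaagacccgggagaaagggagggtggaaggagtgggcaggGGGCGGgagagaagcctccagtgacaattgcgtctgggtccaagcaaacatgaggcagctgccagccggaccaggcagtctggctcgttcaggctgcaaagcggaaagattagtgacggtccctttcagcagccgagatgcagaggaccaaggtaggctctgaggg
Kcnd3: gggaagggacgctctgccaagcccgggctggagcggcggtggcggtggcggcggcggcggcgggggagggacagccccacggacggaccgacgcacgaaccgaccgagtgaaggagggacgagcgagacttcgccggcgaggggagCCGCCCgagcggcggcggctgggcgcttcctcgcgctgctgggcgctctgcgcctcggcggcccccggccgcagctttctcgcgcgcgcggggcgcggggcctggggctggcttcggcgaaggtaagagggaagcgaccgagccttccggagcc
Kcnip1: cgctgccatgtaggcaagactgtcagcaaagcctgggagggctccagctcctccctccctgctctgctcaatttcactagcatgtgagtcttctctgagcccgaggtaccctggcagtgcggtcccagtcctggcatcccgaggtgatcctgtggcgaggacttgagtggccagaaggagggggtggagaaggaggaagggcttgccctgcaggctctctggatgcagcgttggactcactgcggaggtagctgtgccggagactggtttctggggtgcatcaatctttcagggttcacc
Kcnip1: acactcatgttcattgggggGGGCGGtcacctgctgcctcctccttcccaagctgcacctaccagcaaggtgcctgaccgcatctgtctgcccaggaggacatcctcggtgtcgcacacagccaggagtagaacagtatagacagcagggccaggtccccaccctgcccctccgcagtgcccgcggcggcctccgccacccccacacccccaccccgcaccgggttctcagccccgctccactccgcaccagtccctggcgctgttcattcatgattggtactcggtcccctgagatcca

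RefSeq windows matched 7 of the 9 genes, and Kcnd1 and Kcnip4 had none. The 7 genes had 9 windows in all. GGGCGG was found 2 times in the Kcnip2 window, once each in those of Kcnip3 and Kcnd3 and in the second one of Kcnip1, and 33.1% of the 33469 promoters of the table hold it. Dpp6 had 2 matches, Dpp10 had 1 in 1 of its 2 windows, and Kcnd2 had none, so 6 of the 9 windows held the motif. The other 5 motifs searched on both strands were in none of the 9 windows. They were the cAMP response element TGACGTCA (in 1.83% of all promoters), the AP-1 site TGACTCA (4.63%), the E-box CACGTG (6.42%), the TATA box TATAAA (14.2%) and GTCAAGG, from the downstream regulatory element to which DREAM binds (3.62%). G and C made up 67.7% of the Kcnip2 window, 59.0% of that of Kcnip3, 77.7% of that of Kcnd3 and 60.3% and 65.3% of those of Kcnip1, against a median of 51.7% over all promoters. A match describes letters in these windows and says nothing of a factor bound there.

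Genes around the complex were read from 5 lists, and none of their tested genes passed the adjusted threshold in any comparison. All 6 other A-type subunits were tested, and 3 had an unadjusted p under 0.05 for CPA+veh against control+veh, 2 higher and 1 lower, beside 9.94% of all genes. Kcnab2, a beta subunit of Kv1 channels in the brain, had 321 ± 35 CPM in CPA+veh and 274 ± 21 CPM in control+veh rats, a log2 fold change of 0.23 ± 0.07 (adjusted p = 0.364). Kcnab3, a beta subunit that confers fast inactivation on Kv1 channels, had 11.6 ± 0.65 CPM in CPA+veh and 13.8 ± 1.2 CPM in control+veh rats (log2 fold change -0.25, adjusted p = 0.413). CPA+RO against control+veh gave 0.18 for Kcnab2 and -0.27 for Kcnab3, from the same controls.

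Of 21 partners and modulators of Kv4 channels, 20 were tested and 4 had an unadjusted p under 0.05 for CPA+veh against control+veh, 2 in each direction, beside 9.94% of all genes. Fmr1, whose product FMRP binds Kcnd2 transcripts in mouse neurons, had 56.4, 48.2, 62.0 and 64.1 CPM in CPA+veh rats, against 68.3, 68.1, 66.8 and 77.4 CPM in control+veh rats. These groups did not overlap, as for 4.62% of all genes, and the log2 fold change was -0.28 ± 0.10 with an adjusted p of 0.386. CPA+RO against CPA+veh gave 0.18 for Fmr1 with an adjusted p of 0.876. With CPA+veh libraries 1 and 2 left out the first was -0.15 and the second 0.05, and with only library 2 of that group left out the second was 0.11.

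The relatives of the auxiliary subunits gave no called gene either. Of 9 neuronal calcium sensor genes related to the KChIPs, 8 were tested, and 1 had an unadjusted p under 0.05 for CPA+veh against control+veh, beside 9.94% of all genes. This was Rcvrn, recoverin of photoreceptors, at 0.12 ± 0.04 CPM in CPA+veh and 0.21 ± 0.05 CPM in control+veh rats, a level too low to interpret. Hpca, the hippocampal calcium sensor hippocalcin, had 435 ± 22 CPM in CPA+veh and 391 ± 53 CPM in control+veh rats (log2 fold change 0.16, adjusted p = 0.570), and the log2 fold change was 0.25 without control+veh replicate 2. All 4 dipeptidyl peptidase relatives had log2 fold changes above 0 for CPA+veh against control+veh, none at an unadjusted p under 0.05, with 0.09 for the peptidase Dpp9 (0.14 without CPA+veh libraries 1 and 2) and 0.22 for Fap. Of the 3 genes tied to DREAM, none had an unadjusted p under 0.05.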

How the data were processed

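The authors deposited a gene table of raw counts and a table of RPKM made from the same reads, each with 12 libraries prepared with a stranded poly(A) kit. Per the submitters' processing notes, reads went through bcl2fastq, FastQC, STAR and SAMtools, on the builds rn6 and Rnor_6.0. How reads were assigned to genes, with which annotation and strand setting, is not given in the sources used here.

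Genes were tested with edgeR 4.0.16 in R 4.3.3 (TMM, filterByExpr, quasi-likelihood, 12 libraries in 1 fit, group as the only term) with Benjamini-Hochberg adjustment at 0.05. Intervals are at 95%. Log2 CPM used a prior count of 2. Gene lengths came from counts over RPKM for 99.2% of tested genes, and the length correction was an offset from a smooth trend (span 0.3). The edgeR test of CPA+veh against control+veh was tried on simulated counts with changes planted in CPA+veh. The edgeR p values weigh a difference between groups against the spread between rats, estimated with information shared across genes.

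Members and lists were chosen with earlier results of these data known. Named were the 9 members, from each of 5 partner lists any gene called and the 2 of smallest p for CPA+veh against control+veh, and the 3 genes of highest r for each member, leaving out provisional symbols (LOC, RGD, AABR and AC), small RNAs (Mir, Snor) and pseudogenes (-ps). Some partners that this rule names are not reported here. Slc17a7, Gad1, Ttr, Drd2 and Kcnmb1 were named after their values were seen. Alternatives were RLE scaling, DESeq2 1.42.0, limma-voom (limma 3.58.1), no filter, only the 2 groups compared, the length correction, a replicate block alone or with that correction, halved counts, each library left out, and CPA+veh libraries 1 and 2 left out together. Those of the ratios were chosen after seeing the data. Promoters were read from RefSeq GRCr8. No genome of the files' build was used here. Cohort could not be fitted.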

Additional observations from a re-analysis of the deposited data

Results flagged for a closer look

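In 5 of 48 groups of 4 rats (16 genes in 3 groups each), 1 rat lay far from the other 3, judged by the size of its gap relative to the group's range. Chance marks about 1 in 20 such groups. In the complex this was Kcnd3 in CPA+RO, where rat 1 had 99.4 CPM and the other 3 had 108 to 109 CPM. Among the partners, Kcnab2 had 302 CPM in CPA+RO rat 3, against 314 to 316 CPM in the other CPA+RO rats. Fmr1 had 77.4 CPM in control+veh rat 4, against 66.8 to 68.3 CPM in the other controls. Hpca had 361 CPM in CPA+RO rat 3, against 439 to 445 CPM in the other CPA+RO rats, and 469.6 CPM in control+veh rat 2, against 355 to 373 CPM in the other controls.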

How the results depend on the processing

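No gene of the complex passed the adjusted threshold under any of the 22 alternatives, and the lowest adjusted p of a member was 0.145. None of the 7 named partners passed it where tested, and Rcvrn was tested under only 20 or 21 of the alternatives. Counts of genes changed, 22 for CPA+veh against control+veh, 0 for CPA+RO against CPA+veh, 21 for CPA+RO against control+veh and 26 over the 3 groups, were 115, 0, 82 and 120 with DESeq2. Without the filter they were 48 in CPA+RO against control+veh and 53 over the 3 groups. With only the 2 groups compared they were 1 in CPA+RO against CPA+veh and 32 in CPA+RO against control+veh, and without CPA+veh libraries 1 and 2 together 14 in CPA+veh against control+veh. Leaving out 1 library gave 18 to 26, 0 to 0, 15 to 27 and 17 to 32, the 17 without control+veh replicate 3. The cause was not tested.

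Changes of sign were found among small log2 differences. For CPA+RO against CPA+veh, Kcnip4 (-0.000559) became 0.00291 under RLE scaling, 0.00288 with DESeq2, 0.00161 with limma-voom, 0.00266 with only the 2 groups compared, 0.00121 under the replicate block and 0.00349 with halved counts. The length correction gave -0.0391 for Dpp6, -0.0010 for Dpp10, 0.013 for Kcnab3 and 0.0469 for the ratio of Kcnip3 to Kcnip2, and with the replicate block -0.0364, -0.000583 and 0.0112 for the 3 genes. Without CPA+veh libraries 1 and 2 together, CPA+RO against CPA+veh gave -0.0851 for Kcnd2, -0.00405 for Kcnd3, -0.00766 for Dpp6, -0.057 for Dpp10, 0.0179 for Kcnab3 and -0.0502 for the ratio of Dpp10 to Dpp6, and CPA+veh against control+veh gave 0.0207 for Dpp10. Leaving out 1 library gave, for CPA+RO against CPA+veh, -0.0217 to 0.0737 for Kcnd2, -0.083 to 0.356 for Kcnip2, -0.0579 to 0.0454 for Kcnip4, -0.0886 to 0.0169 for Kcnab2, -0.0743 to 0.0275 for Kcnab3, -0.0801 to 0.018 for Hpca, -0.248 to 0.143 for the ratio of Kcnip3 to Kcnip2 and -0.0364 to 0.0466 for that of Dpp10 to Dpp6. For CPA+RO against control+veh it gave -0.0714 to 0.0134 for Kcnd3, -0.115 to 0.0208 for Kcnip1, -0.0497 to 0.0105 for Kcnip3 and -0.117 to 0.0274 for Fap, and for CPA+veh against control+veh -0.00414 to 0.0506 for Dpp6. In all, 20 signs turned outside these single-library runs and 34 within them.

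No pairing of the rats by replicate number was seen. Between same-numbered libraries r was -0.11 to 0.10, over 0.1 in 0 of 12 pairs. Of the 12 libraries, 4 correlated best with their own number. Pairing by cohort or recording day, which no label gives, was not tested. The replicate block gave 17 genes changed for CPA+veh against control+veh and 21 for CPA+RO against control+veh. With 4 rats a group, standard errors of the 9 genes were 0.05 to 0.20 on the log2 scale, so small differences were not detectable.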
